A study of Mus musculus with 8 samples.

Results

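The coat, cargo and retrieval proteins of transport between the endoplasmic reticulum (ER) and the Golgi were followed as 35 named genes in ribosome profiling of mouse embryonic stem cells (mESCs). The genes were taken by symbol, from a list drawn up with earlier results of these data known. Of the 35, 33 were among the 8125 genes of the table used: 8 genes of COPI coatomer subunits, 11 components of the COPII coat, the SNARE Sec22b, 6 p24 proteins, 3 KDEL receptors and 4 ARF GTPases. Tmed4 and Tmed5, further p24 proteins, were not analysed here. Control cells were heterozygous (Dis3l2 +/-) and knockout cells lacked Dis3l2 (Dis3l2 -/-, by CRISPR/Cas9 editing), so the controls also carried an altered allele. Dis3l2 is an exoribonuclease of uridylated RNA, and the comparison asks whether its loss alters the abundance and the translation of mRNAs. Per the study's methods both genotypes were TC1 mESCs grown undifferentiated on gelatin without feeder cells in LIF and serum, in 2 biological replicates. The number of clones behind each genotype is unknown here. From each genotype came 2 libraries of input mRNA and 2 of ribosome-protected fragments (RPFs), which are the pieces of mRNA that survive digestion inside ribosomes, or 8 libraries in all. Dividing a gene's RPF value by its input value gave its translation efficiency (TE). Dis3l2 itself was not analysed here.

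COPII vesicles carry newly made proteins out of the ER. The GTPase SAR1 inserts into the ER membrane and recruits the inner coat of SEC23 and SEC24, whose SEC24 subunit binds cargo, and then the outer cage of SEC13 and SEC31, at sites organised by SEC16. COPI vesicles, formed by the 7-subunit coatomer that ARF GTPases bring to Golgi membranes, return escaped ER proteins and recycling machinery. The p24 (TMED) proteins span the membrane once and link lumenal cargo to both coats, and KDEL receptors retrieve lumenal ER chaperones by their C-terminal signal. The p24 proteins, the KDEL receptors and Sec22b are membrane proteins made at or inserted into the ER, while coat subunits and GTPases are made in the cytosol.

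The libraries were those of embryonic stem cells. All 10 stem cell markers listed were in the table, with a summed input level between 13212 and 13591 normalised units. Pou5f1 input was 3972 and 4061 in control and 3956 and 3894 in knockout, and Nanog input was 496 and 472 in control and 493 and 449 in knockout. Of 6 fibroblast markers only Fbn1 was in the table (28.4 to 34.2 in summed input), of 5 trophoblast markers only Krt8 (23.9 to 41.0), of 3 neural markers Sox1 and Nes (41.0 to 54.3 together), and of 6 primitive endoderm markers none. Input libraries held 8382211 to 33609787 reads. RPF libraries were shallower, with 558962 and 1126782 reads in control against 268255 and 140163 in knockout. Values are in normalised units, reads divided by 1 factor per library, and 1 RPF read counted for 3.94 and 1.94 units in control and for 8.22 and 15.6 units in knockout. Among members the median number of RPF reads was 61 and 109 in control but 29 and 13 in knockout. In knockout RPF replicate 2, 11 of the 33 members had fewer than 10 reads.

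Several members belong to pairs of close paralogs, and the clearest difference between genotypes lay in the SAR1 pair, so that it mattered whether an RPF could be given to the right gene. Sar1a (chromosome 10, 61680299 to 61693297) and Sar1b (chromosome 11, 51763687 to 51791925; GRCm38, GENCODE M21) encode proteins of 198 codons each and were identical at 468 of 594 coding bases (78.8%). The following coding stretches are of 28 bases, about the length of an RPF, printed 5′ to 3′ from the GENCODE M21 transcripts, with the bases that differ between the pair in capitals. Only stretches that start at the first base of a codon were compared for this choice. Of these, the first pair (coding bases 19 to 46, from codon 7) is the most alike, and the second (bases 316 to 343, from codon 106) is the least alike.
Sar1a, most alike: tggatCtacaAtggCttcagcagtgtgc
Sar1b, most alike: tggatTtacaGtggTttcagcagtgtgc
Sar1a, least alike: TCTCgTctCAtGgaatcCaaagTTgaGc
Sar1b, least alike: GAAAgGctGTtAgaatcAaaagAAgaAc
The most alike of the stretches compared differed at 3 bases, and the least alike at 12. The authors' alignment allowed at most 1 mismatch. None of the 567 windows of 28 bases along Sar1a, and none along Sar1b, occurred with up to 1 mismatch in an annotated transcript of another gene.

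For the ARF GTPases the same search gave another answer. Arf1 (chromosome 11) and Arf3 (chromosome 15) were identical at 83.6% of 543 coding bases, and 27 windows of 28 bases matched between them with up to 1 mismatch. One stretch of coding bases 238 to 265 is shown because it is the same in both genes. Beside it is the least alike of the stretches that start a codon, bases 13 to 40, which differs at 9 bases (capitals).
Arf1 and Arf3, identical: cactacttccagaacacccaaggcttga
Arf1, least alike: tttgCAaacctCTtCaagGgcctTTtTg
Arf3, least alike: tttgGGaacctTCtGaagAgcctAAtCg
Reads from such shared windows cannot be given to a single gene. Counting transcripts of every kind, pseudogenes included, 96.7% of Arf1 windows, all windows of Tmed2 and Tmed10, 74.9% of Arcn1 windows, 34.5% of Sec22b windows, 25.1% of Sec13 windows, 22.6% of Tmed9 windows and 13.6% of Cope windows had a match in another gene. Within protein-coding transcripts the share was 20.5% for Tmed2 (all with Rxylt1), 9.69% for Arf1 and 5.23% for Arf3, and under those values for each other member. The levels of Arf1, Tmed2, Tmed10 and Arcn1 are uncertain for this reason, since the sources used here do not say how the authors placed reads with several matches.

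No member of the vesicle machinery passed the test in any comparison. Input was tested for 33 members and RPF and TE for 32, because Tmed3 fell below the RPF minimum. With limma over all genes, at a Benjamini-Hochberg adjusted p of 0.05, 0 of 33 members passed in input, where 0.340% of 7946 genes passed, 0 of 32 passed in RPF, where 0.623% of 6260 genes passed, and 0 of 32 passed in TE, where 0% of 6240 genes passed. At an unadjusted p of 0.05, 2 members passed in input, 2 in RPF and 4 in TE, against 12.7%, 10.8% and 13.0% of all genes tested. The lowest adjusted p of a member was 0.340 in input, 0.0977 in RPF and 0.134 in TE. Count models of the whole reads gave some calls: edgeR called Sar1a in RPF (1.44% of all genes called) and in TE (1.14% of all genes called), and DESeq2 called Sar1a and Tmed7 in TE (3.19% of all genes called). Both models called no member in input, and DESeq2 called none in RPF. DESeq2 gave no adjusted p to 4 of 33 members in input (Tmed10 among them), 21 of 32 in RPF and 7 of 32 in TE. Those in TE included Kdelr3, Tmed1, Tmed2 and Tmed10. The 3.19% is a share of all 6240 genes tested, and 1815 of these had no adjusted p from DESeq2. Leaving out 1 knockout RPF library raised the calls over all genes from 39 to 873 (replicate 1) or 759 (replicate 2) in RPF and from 0 to 1345 or 1113 in TE. Members then called were Sar1a and Tmed7 in RPF and Sar1a, Tmed7, Copb2 and Kdelr3 in TE without replicate 1. Without replicate 2 they were Sar1a, Sec16a, Tmed1, Tmed10 and Arcn1 in RPF and Sar1a, Tmed7, Arcn1, Tmed1 and Tmed2 in TE. Sar1b was called in input without control input replicate 2, where 599 genes were called. With 1 library left in a group, its spread is assumed to match that of the other groups, so the calls of these fits carry no weight for a member. An exact test of 2 against 2 libraries cannot give a p below 0.333.

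The members' mRNA levels were close to equal in the genotypes. These are bulk libraries, in which a difference in all cells and a larger one in some of them cannot be told apart. The median log2 change of members, knockout over control on the scale of log2(value + 10), was 0.03 in input, -0.04 in RPF and -0.15 in TE, beside medians of 0.00, -0.02 and -0.02 over all genes tested. The median in TE was 0.01 without knockout RPF replicate 2 and -0.02 without control RPF replicate 1. The added 10 understates the change of genes with low values. These signs follow the names of the library columns. The signs of the comparison column that the authors deposited run the other way, and which of the columns carries the intended direction was not settled, so all signed values would turn together if the column names were exchanged. In input 21 members lay above and 12 below 0, in RPF 15 above and 17 below, and in TE 14 above and 18 below. Of all genes tested, 4075 lay above and 3871 below 0 in input, 3028 and 3232 in RPF, and 3000 and 3240 in TE. The 2 knockout values did not overlap the 2 control values for 13 of 33 members in input (10 higher, 3 lower), 13 of 32 in RPF (4 higher, 9 lower) and 15 of 32 in TE (5 higher, 10 lower). Over all genes tested, this share was 44.0% in input, 42.4% in RPF and 41.8% in TE, so the members' shares were near the background. The precision differed by kind of library: the median half-width of a member's 95% confidence interval was 0.17 in input, 0.67 in RPF and 0.71 in TE on the log2 scale. For a typical member this half-width is a factor of 1.59 in RPF and 1.63 in TE. It is not the smallest change that the adjusted test could call, since the 2.86-fold lower RPF of Sar1a in knockout did not pass by limma. The TE model gave input and RPF 1 shared variance per gene, so intervals and unadjusted p-values in TE may be too small. For some members the SE was smaller in TE than in RPF alone (Sar1a 0.31 against 0.36, Kdelr3 0.31 against 0.42). For others it was larger (Tmed1 0.85 against 0.66).

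**Figure D1:**
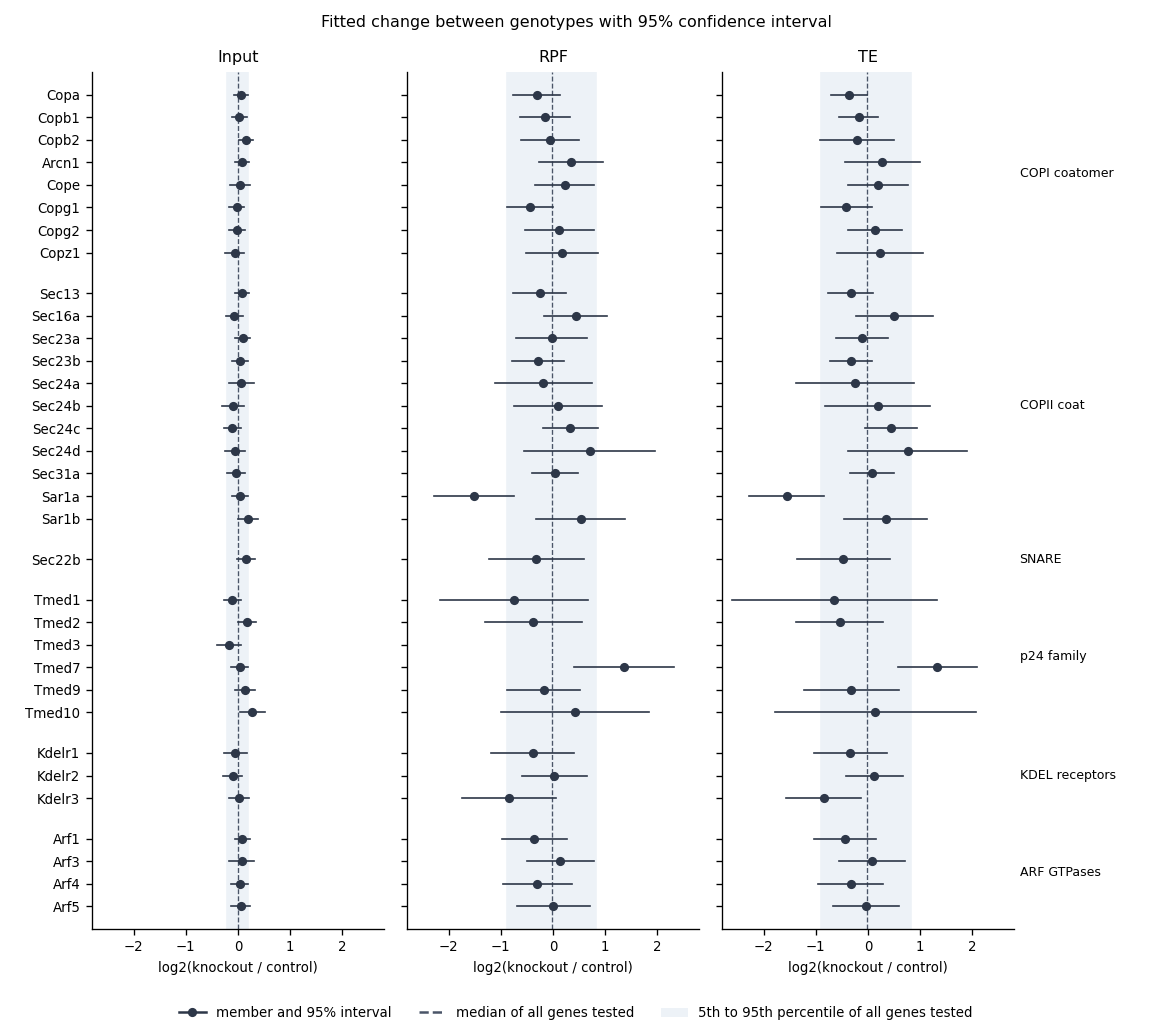
Fitted log2 change (knockout over control, log2(value + 10)) of each member in input, RPF and TE, with its 95% confidence interval, by class; the dashed line is the median and the shaded band the 5th to 95th percentile of all genes tested. Input changes lie between -0.17 and 0.27, and Sar1a (RPF -1.51, TE -1.56) and Tmed7 (RPF 1.37, TE 1.33) lie outside the band in RPF and TE.

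**Figure D2:**
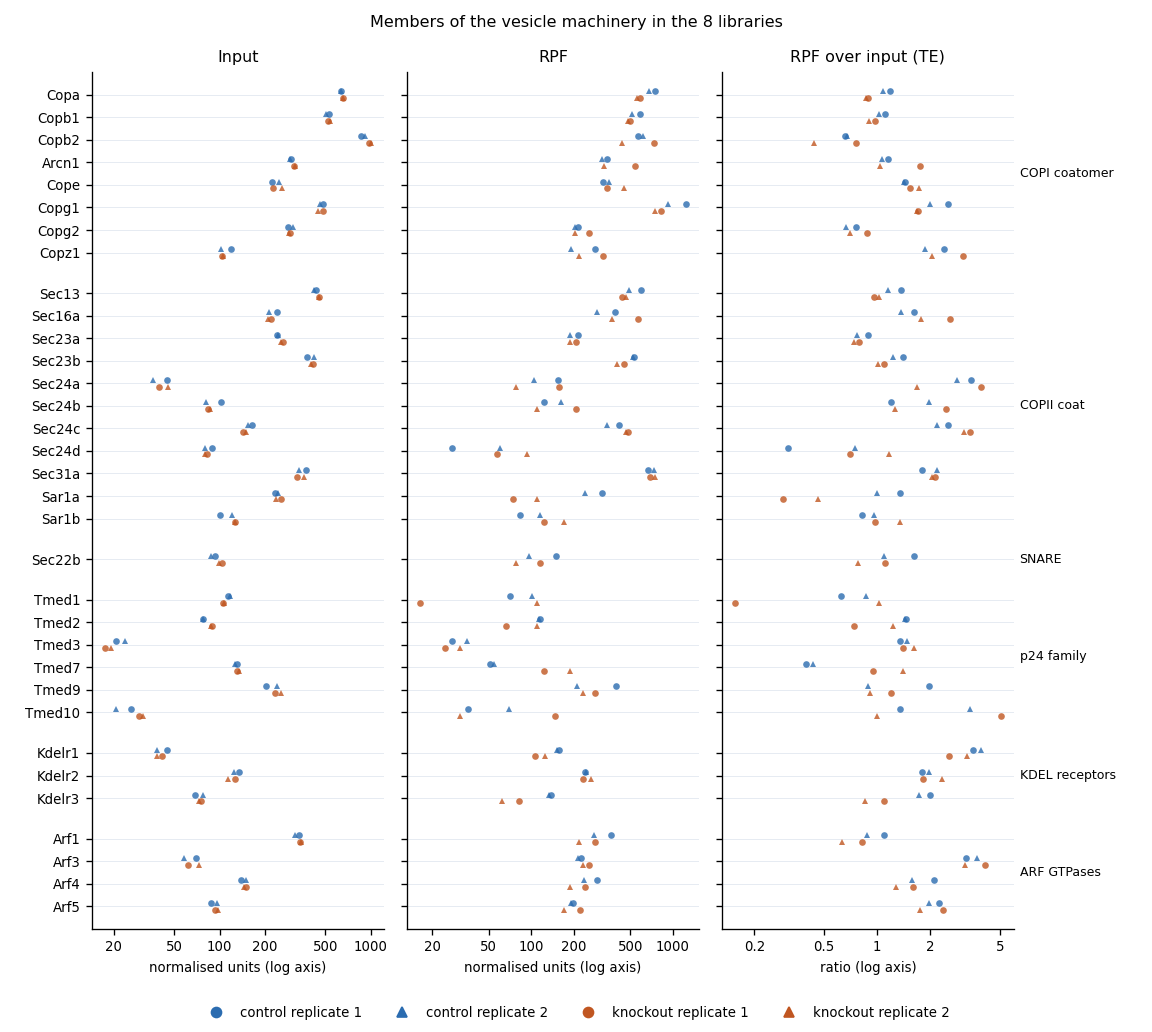
Input and RPF values (normalised units, log axes) and their ratio TE (log axis) of 33 members in each of the 8 libraries, control in blue and knockout in orange, replicate 1 as circles and replicate 2 as triangles. Values are not divided by length, so a gene is to be compared with itself across libraries; the 4 input values of a gene lie close together, and the RPF values of Tmed1 and Tmed10 spread widely in knockout.

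Of the COPI coatomer, the coat of retrograde vesicles, all 8 genes (Copa, Copb1, Copb2, Arcn1, Cope, Copg1, Copg2 and Copz1) were tested in each comparison. Copg1 and Copg2 both encode the gamma subunit. The log2 changes of TE of the 8 genes lay between -0.41 and 0.28, 4 above and 4 below 0. The summed input of the 8 was 3420 and 3455 normalised units in control and 3561 and 3590 in knockout. Their summed RPF was 4285 and 3795 in control and 4108 and 3421 in knockout. Knockout replicate 1 thus lay within the control range of RPF and replicate 2 below it. TE of the summed values was 1.18 ± 0.11 in control and 1.05 ± 0.14 in knockout (SD, n = 2), with overlapping values.

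Copg1, a gamma subunit of the COPI layer that resembles a clathrin adaptor, had the lowest TE change of the coatomer. Its input was 484 and 459.9 in control and 483 and 444 in knockout. The RPF value of Copg1 was 1229 and 923 in control and 822 and 746 in knockout (312, 476, 100 and 48 reads). Both knockout RPF libraries were below both controls while input overlapped. The log2 change of RPF was -0.44 (95% confidence interval -0.88 to 0.01, adjusted p = 0.460) and that of TE was -0.41 (-0.91 to 0.08, adjusted p = 0.460), both by limma. Without control RPF replicate 1 they were -0.23 and -0.21, and without control RPF replicate 2 they were -0.64 and -0.62. The other gamma subunit, Copg2, had a TE change of 0.13 (-0.39 to 0.65). Copg1 gave 85.2% and 81.9% of the RPF per codon of the gamma pair in control and 76.3% and 78.6% in knockout, so the 2 knockout shares were the lower.

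Copa, the alpha subunit that binds dilysine retrieval signals of cargo, had the smallest p of the coatomer in TE and was singled out after its values were seen. Its TE was 1.19 and 1.08 in control and 0.890 and 0.860 in knockout, with a log2 change of -0.37 (-0.71 to -0.02, unadjusted p = 0.039, adjusted p = 0.362). In RPF alone the log2 change of Copa was -0.32, with an interval of -0.77 to 0.14 that held 0. Copb1, the beta subunit, also had both knockout TE values below both controls (log2 change -0.18, adjusted p = 0.685). Neither passed the test.

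Arcn1, the delta subunit, had the highest TE change of the coatomer, although most of its coding windows have a match in another gene. In RPF, Arcn1 had a value of 343 and 314 in control and 542 and 327 in knockout, from 87, 162, 66 and 21 reads. Its input was 298 and 293 in control and 311 and 313 in knockout. Only knockout replicate 1 stood apart from the control RPF values, and the log2 change of TE was 0.28 (SE 0.31, adjusted p = 0.751). With knockout RPF replicate 2 left out the change was 0.63, and with replicate 1 left out it was -0.08.

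Copb2, the beta prime subunit, was among the 3 members of smallest p in input. Its input value was 859 and 912 in control and 975 and 994 in knockout, both knockout libraries being above both controls. The log2 change was 0.15 (0.02 to 0.29), with an unadjusted p of 0.033 and an adjusted p of 0.355. Copb2 RPF was 567 and 615 in control and 739.5 and 435 in knockout, so that the knockout libraries enclosed the controls. Cope, the epsilon subunit, and Copz1, the zeta subunit, had TE changes of 0.19 (adjusted p = 0.789) and 0.23 (adjusted p = 0.833).

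Because values were not divided by length, levels of different subunits were compared only as RPF per 100 codons. In control, Copb1 (57.5 ± 5.1, SD, n = 2), Copa (58.4 ± 3.9), Arcn1 (64.3 ± 3.9) and Copb2 (65.3 ± 3.7) lay close together. Copa could not be ordered against Copb1, nor Arcn1 against Copb2, since their library values overlapped. Cope was at 109 ± 7.8, Copz1 at 134 ± 37 and the sum of Copg1 and Copg2 at 147 ± 25. Copz1 overlapped both Cope and that sum. Copg2 alone was lowest at 23.9 ± 0.73, against 123 ± 25 for Copg1. The ratio of the highest to the lowest of the 8 genes, over the mean of 4 libraries, was 5.71. In knockout Copg2 was again lowest (26.2 ± 4.3), followed by Copa (46.7 ± 1.4) and Copb1 (51.6 ± 1.4), while Copb2 (64.9 ± 23.8) and Arcn1 (85.0 ± 29.8) differed too much between the 2 libraries to be ordered.

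**Figure D3:**
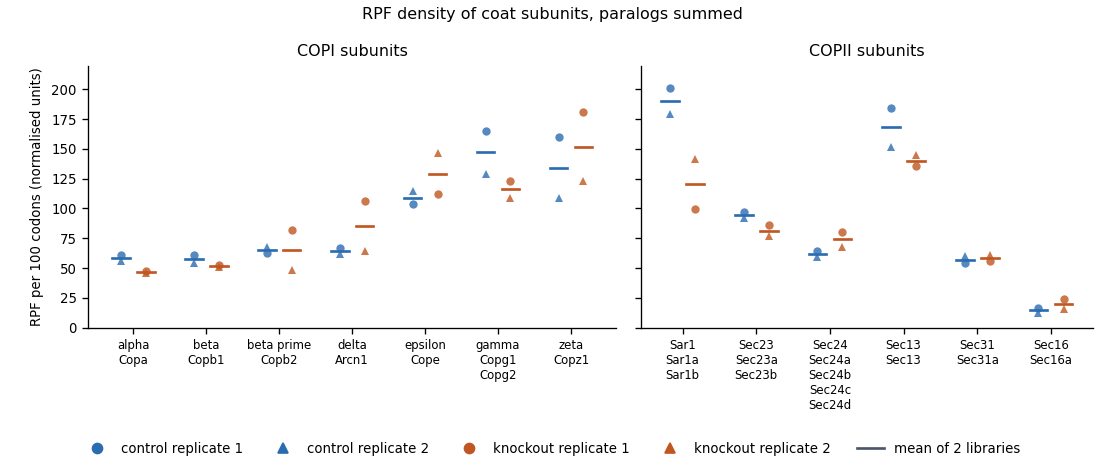
RPF per 100 codons (normalised units) of COPI subunits and of COPII components, with the paralogs named under each column summed, in each RPF library; bars mark the mean of 2 libraries, control in blue and knockout in orange. In control COPI alpha, beta, beta prime and delta lie between 53.9 and 67.9, and for the summed SAR1 pair both knockout libraries (99.6 and 141) are below both control libraries (201 and 179).

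The 11 components of the COPII coat included the gene with the clearest difference. The summed input of the 11 was 2397 and 2348 in control and 2404 and 2403 in knockout, and their summed RPF was 3509 and 3246 in control and 3451 and 3203 in knockout. The RPF sums overlapped between genotypes, and TE of the summed values was 1.42 ± 0.06 in control and 1.38 ± 0.07 in knockout (SD, n = 2). The log2 changes of TE of single components ran from -1.56 to 0.76, 6 above and 5 below 0, with a median of 0.08.

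Sar1a encodes one of 2 mammalian SAR1 GTPases that start COPII assembly. Its input was 233 and 242 in control and 255 and 236 in knockout, so the genotypes overlapped. For Sar1a RPF the values were 315 and 240.5 in control and 73.9 and 109 in knockout, from 80, 124, 9 and 7 reads. Both knockout RPF libraries were below both controls by a wide gap, on few reads. The log2 change of RPF was -1.51 (95% confidence interval -2.29 to -0.74), which is 2.86-fold lower in knockout, with an adjusted p of 0.0977 by limma and of 0.0177 by edgeR. TE was 1.35 and 0.996 in control and 0.290 and 0.461 in knockout, a log2 change of -1.56 (-2.28 to -0.84). The adjusted p of this TE change was 0.134 by limma, 0.0274 by edgeR and 0.00222 by DESeq2. Over 17 alternative settings the TE change lay between -1.81 and -1.31, so it stayed negative in each of them while the call depended on the setting. Without knockout RPF replicate 1 the change was -1.26 in RPF and -1.31 in TE, and without replicate 2 it was -1.77 and -1.81. Each of these fits rests on 1 knockout RPF library.

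Sar1b, the paralog of Sar1a, did not pass the test in any comparison with all libraries. Its input was 100.5 and 119.8 in control and 127 and 126.6 in knockout, and this log2 change of 0.19 (SE 0.09, adjusted p = 0.401) was among the 3 of smallest p in input. It was 0.08 without control input replicate 1 and 0.31 without control input replicate 2. RPF values of Sar1b were 82.7 and 114 in control and 123 and 171 in knockout, from 21, 59, 15 and 11 reads, with a log2 change of 0.53 (-0.33 to 1.39, adjusted p = 0.660). Both knockout values were above both controls in RPF, the opposite side from Sar1a. Because the 2 coding sequences are of equal length, the RPF reads of the pair can be set against each other within a library. This comparison was chosen after the values were seen. For input the region counted is not given, so input shares can be compared only between input libraries. In input Sar1a gave 69.8% and 66.9% of the pair's reads in control and 66.7% and 65.1% in knockout. Among RPF reads Sar1a gave 79.2% (80 of 101 reads, exact Clopper-Pearson 95% interval 70.0% to 86.6%) and 67.8% (124 of 183, 60.5% to 74.5%) in control. In knockout it gave 37.5% (9 of 24, 18.8% to 59.4%) and 38.9% (7 of 18, 17.3% to 64.3%). The RPF shares of both knockout libraries were below those of both controls, and the interval of knockout replicate 2 reached above the lower bound of control replicate 2. These intervals cover counting error only. The summed RPF per 100 codons of the pair was 190 ± 15 in control and 120 ± 30 in knockout.

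**Figure D4:**
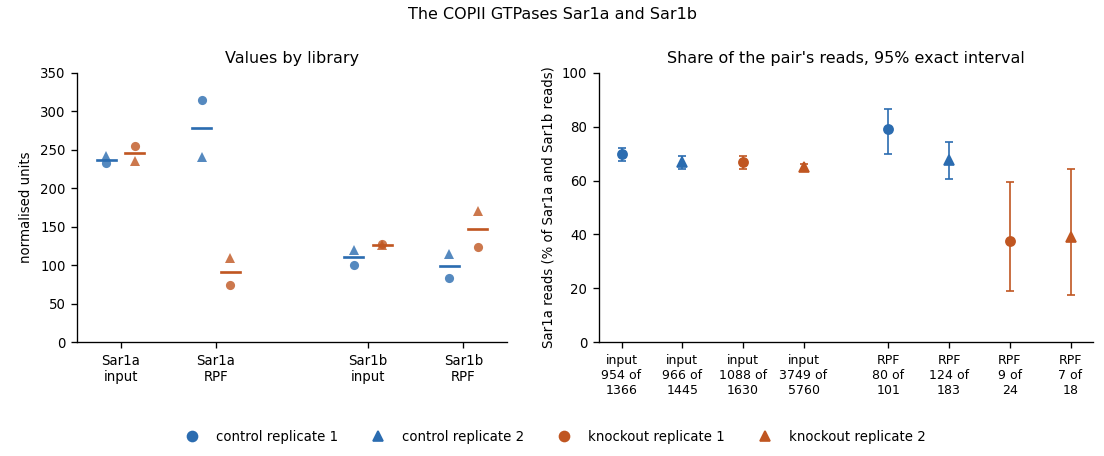
Left, input and RPF values (normalised units) of Sar1a and Sar1b in each library, with bars at the mean of 2 libraries; right, Sar1a reads as a percentage of the reads of both genes in each library with exact 95% intervals for counting error, and the reads printed under each point. The Sar1a share is 65.1% to 69.8% in all input libraries, 67.8% and 79.2% in control RPF and 37.5% and 38.9% in knockout RPF. Input shares are to be compared only between input libraries, since the region counted for input is not given.

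The 4 Sec24 paralogs select cargo. Sec24d had the highest TE change of the coat, on the lowest reads: its RPF value was 27.6 and 60.1 in control and 57.5 and 93.3 in knockout, from 7, 31, 7 and 6 reads. Its input was 89.1 and 80.5 in control and 82.2 and 79.7 in knockout. The genotypes overlapped in both, and the TE change of 0.76 had an interval of -0.38 to 1.90 (adjusted p = 0.554). This change was 0.31 without control RPF replicate 1 and 1.21 without control RPF replicate 2. Sec24c had both knockout TE values above both controls (log2 change 0.44, -0.05 to 0.94, adjusted p = 0.421), while Sec24a (-0.25) and Sec24b (0.18) overlapped. Per codon, Sec24c gave the largest share of the 4 in every RPF library, 58.7% and 52.4% in control and 54.9% and 63.1% in knockout. Sec24d gave the smallest share in both control libraries, 4.16% and 9.80%, and in knockout replicate 1, 6.92%, and 13.4% in knockout replicate 2, where Sec24a was smallest at 10.6%.

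Of the Sec23 pair, the GTPase-activating subunit of the inner coat, Sec23b gave 71.4% and 73.6% of the RPF per codon in control and 68.7% and 68.4% in knockout. The TE change was -0.33 for Sec23b (-0.73 to 0.08, adjusted p = 0.474) and -0.11 for Sec23a (adjusted p = 0.865). In the outer cage, Sec13 had a TE change of -0.33 (adjusted p = 0.490) and Sec31a of 0.08 (adjusted p = 0.894). Sec13 is also a component of the nuclear pore. Its RPF per 100 codons in control was 168 ± 23 against 57.0 ± 4.1 for Sec31a, a difference beyond the spread of the libraries. Sec16a, the scaffold of ER exit sites, had a TE change of 0.51 (-0.24 to 1.25, adjusted p = 0.539), with both knockout values above both controls.

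Sec22b, a SNARE of ER to Golgi vesicle fusion, was the single member of its class. Its input was 92.5 and 88.3 in control and 104 and 99.6 in knockout. The RPF of Sec22b was 149.7 and 97.0 in control and 115 and 77.8 in knockout, from 38, 50, 14 and 5 reads. The RPF values overlapped, and the TE change was -0.47 (-1.36 to 0.41, adjusted p = 0.642), with a range of -0.76 to -0.19 when 1 library was left out (the ends without control RPF replicate 2 and 1).

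Among the p24 proteins 6 were measured (Tmed1, Tmed2, Tmed3, Tmed7, Tmed9 and Tmed10), and 5 were tested for RPF and TE. The summed RPF of the 6 was 697 and 584 in control and 657 and 699.8 in knockout, with overlapping values, and the summed input was 571 and 603 in control and 604 and 632 in knockout. Of the 5 changes of TE, 2 were above and 3 below 0, from -0.64 to 1.33.

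Tmed7, a p24 protein of the gamma subfamily, had the highest TE change of all members. Its input was 130.3 and 126 in control and 130.0 and 133 in knockout, values that overlapped. Tmed7 RPF was 51.2 and 54.3 in control and 123 and 187 in knockout, from 13, 28, 15 and 12 reads. Each knockout RPF value was more than 2 times each control value, on a small number of reads. The log2 change of RPF was 1.37 (0.41 to 2.32, adjusted p = 0.292). TE was 0.393 and 0.430 in control and 0.948 and 1.40 in knockout, a log2 change of 1.33 (0.57 to 2.09). The adjusted p of the TE change was 0.223 by limma, 0.112 by edgeR and 0.00989 by DESeq2. Over 17 alternatives the change lay between 1.05 and 1.61. In control the TE of Tmed7 was the lowest of all members, at percentile 4.39 of the genes tested.

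Tmed10 and Tmed1 differed widely between the 2 knockout RPF libraries, for a reason that was not tested. Tmed10, which forms p24 complexes with Tmed2, had an input of 26.1 and 20.5 in control and 29.3 and 31.0 in knockout, with a log2 change of 0.27 (0.03 to 0.52, adjusted p = 0.340), the smallest p of the members in input. That change was 0.15 without control input replicate 2 and 0.40 without control input replicate 1. In RPF, Tmed10 stood at 35.4 and 69.8 in control and 148 and 31.1 in knockout, from 9, 36, 18 and 2 reads. The knockout libraries enclosed the controls, and every coding window of Tmed10 has a match elsewhere. Tmed1, also of the gamma subfamily, had an RPF value of 70.9 and 100.8 in control and 16.4 and 109 in knockout, from 18, 52, 2 and 7 reads. Its input was 114 and 117 in control and 105 and 106 in knockout. Its TE change of -0.64 (-2.61 to 1.33, adjusted p = 0.795) was the lowest of the class. With knockout RPF replicate 2 left out this change was -1.73, but it was 0.44 with replicate 1 left out. Tmed2 and Tmed9 had TE changes of -0.54 (adjusted p = 0.557) and -0.32 (adjusted p = 0.775). Tmed3, not tested in RPF, had RPF values of 27.6 and 34.9 in control and 24.6 and 31.1 in knockout, from at most 18 reads.

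The 3 KDEL receptors, which bind escaped chaperones in the Golgi and return them in COPI vesicles, were of unequal TE change. The summed RPF of the 3 was 536 and 529 in control and 419 and 451 in knockout, both knockout libraries below both controls, and the summed input was 248 and 239 in control and 243 and 224 in knockout. Kdelr3 had the lowest change: its RPF value was 138 and 134 in control and 82.2 and 62.2 in knockout, from 35, 69, 10 and 4 reads. Its input was 69.1 and 77.0 in control and 74.7 and 72.8 in knockout. RPF values of the genotypes did not overlap while input did, and the TE change was -0.85 (-1.57 to -0.14), with an unadjusted p of 0.025 and an adjusted p of 0.332. In RPF alone the log2 change of Kdelr3 was -0.84, with an interval of -1.74 to 0.07 that held 0. Kdelr1 also had both knockout TE values below both controls (log2 change -0.34, -1.04 to 0.36, adjusted p = 0.668).

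Kdelr2 had the highest TE change of the 3. Kdelr2 RPF was 240.2 and 244 in control and 230.1 and 264 in knockout, and its input was 134 and 123.5 in control and 127 and 113 in knockout. The values overlapped in both kinds of library, and the TE change was 0.12 (-0.42 to 0.67, adjusted p = 0.868), with a range of 0.03 to 0.22 when 1 library was left out (the ends without the second and the first knockout RPF library). Per codon, Kdelr2 gave the largest share of the 3 receptors in each RPF library, 45.0% and 46.3% in control and 55.0% and 58.7% in knockout. Kdelr3 gave 25.6% and 25.1% in control and 19.5% and 13.7% in knockout.

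The 4 ARF GTPases recruit coatomer and other coats. Arf1 had the lowest TE change: its RPF value was 366 and 277 in control and 279 and 218 in knockout, with reads of 93, 143, 34 and 14, and its input was 334.5 and 315 in control and 339 and 347 in knockout. The RPF values of the genotypes overlapped, but both knockout TE values (0.823 and 0.627) were below both controls (1.09 and 0.882). The TE change was -0.44 (-1.04 to 0.16, adjusted p = 0.511), which became -0.24 without control RPF replicate 1 and -0.63 without control RPF replicate 2. Arf3 had the highest, 0.07 (-0.56 to 0.71, adjusted p = 0.941), with an RPF value of 224 and 215 in control and 255 and 233 in knockout and an input of 70.0 and 57.8 in control and 61.6 and 73.3 in knockout. The change of Arf3 was near 0, and its sign turned without control input replicate 1 (-0.05) and without knockout input replicate 1 (-0.03). Arf4 and Arf5 had TE changes of -0.33 (adjusted p = 0.644) and -0.04 (adjusted p = 0.966). Arf1 made up 82.7% and 84.5% of the input reads of Arf1 and Arf3 together in control and 84.6% and 82.6% in knockout. Among RPF reads its share was 62.0% and 56.3% in control and 52.3% and 48.3% in knockout. The exact 95% intervals overlapped between all 4 RPF libraries and cover counting error only. These shares are uncertain, since 96.7% of Arf1 windows and 5.23% of Arf3 windows matched another gene. Input and RPF shares are not to be set against each other, as the region counted for input is not given.

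The study's question concerns proteins made at the ER, so the members were also described by whether the protein has a transmembrane segment. The 9 tested members with one (p24 proteins, KDEL receptors and Sec22b) had a median log2 change of TE of -0.34, with 3 above and 6 below 0. The 23 soluble members had a median of -0.04, with 11 above and 12 below 0. Over all genes tested the median was -0.02, with 3000 above and 3240 below 0. This split was compared across settings after the data were seen: the median of the membrane proteins lay between -0.44 and -0.22 in the 17 alternatives that tested all 9 and was -0.10 with the stricter filter, which left 2 of them. Over 18 alternatives that of the soluble members lay between -0.21 and 0.12, with 15 of the 23 left by the stricter filter. The difference between the 2 groups of members was not tested. In knockout RPF replicate 2, Tmed1, Tmed2, Tmed10, Kdelr1, Kdelr3 and Sec22b had 2 to 8 reads each. All windows of Tmed2 and Tmed10, 34.5% of Sec22b windows and 22.6% of Tmed9 windows matched another gene.

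Within control cells the members covered most of the range of TE, a description that depends on the region counted for input, which the sources used here do not state. Over the 33 members the median percentile of TE was 70.8 among the 6240 genes tested, from 4.39 for Tmed7 to 96.7 for Kdelr1. The KDEL receptors lay between percentiles 83.1 and 96.7. The COPI genes had a median of 55.8, with Copb2 lowest at 20.4 and Copg1 highest at 88.9.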

How the data were processed

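The authors trimmed reads, removed those of rRNA and tRNA, aligned the remainder to mm10 gene models with Bowtie, allowing 1 mismatch, and took RPFs over coding sequences. Which Bowtie version was used, and which region was counted for input, is not given in the sources used here. Each deposited signal value is a number of reads scaled by the authors with 1 factor for the whole library, without regard to gene length. Of these values 100% came out as whole reads within 0.02 read, which count tests used. The log2 column that the authors deposited holds their own comparison of TE between genotypes and was used only to check its sign. All 8125 gene identifiers matched GENCODE M21 (GRCm38), whose transcripts gave codons and sequences in place of the protein table foreseen, and 14 symbols stored as dates were restored.

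Genotypes were compared in input and in RPF with limma 3.58.1 (R 4.3.3, trend, two-sided) on log2(value + 10) of the 4 libraries of each kind, and TE by a genotype-by-kind interaction in a model of all 8. The TE model gave each gene 1 residual variance for both kinds of library, although RPF varied more than input. Its intervals may therefore be too narrow and its p-values too small. Genes needed a mean of 10 in input and 50 in RPF. P-values were adjusted by Benjamini-Hochberg over all genes tested, at 0.05. As alternatives the pseudocount was set to 1 or 30, the filter dropped or raised (to 100 and 200), library medians equalised, and edgeR 4.0.16, DESeq2 1.42.0 and a replicate block tried, as were thinned reads and each library left out. The scripts were tested on simulated data. Shared sequence was searched in windows of 28 bases on the same strand, and RPF per codon used the principal transcript. Named with values in every library were the 3 members of smallest p in each comparison and, in each class, those of highest and lowest TE change. Members and lists were chosen with earlier results of these data known. No batch is given in the labels, so batch or clone and genotype cannot be told apart.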

Additional observations from a re-analysis of the deposited data

How the results depend on the processing

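The count of genes called depended on the settings. In input, 27 genes passed, against 14 with the stricter filter, 45 with DESeq2, 69 with the replicate block and 43 to 599 with 1 library left out. In RPF, 39 passed, against 84 with the stricter filter, 21 with equalised medians, 90 with edgeR, 126 with the replicate block, 18 with thinned reads and 34 to 873 with 1 library left out. In TE, 0 passed by limma (814 at an unadjusted p of 0.05), 40 with the stricter filter, 71 with edgeR, 199 with DESeq2, 3 with the replicate block within genotype and 0 to 1345 with 1 library left out. The causes were not tested, except that the stricter filter tested fewer genes. Of the members, 1 (Sar1a) was called by edgeR in RPF, 1 (Sar1a) with the replicate block in RPF, 1 (Sar1a) by edgeR in TE and 2 (Sar1a and Tmed7) by DESeq2 in TE. With 1 library left out the members called ranged from 0 to 1 in input, 0 to 5 in RPF and 0 to 5 in TE, where a lone library is assumed to vary like the other groups. The median change of members in TE, -0.15, was -0.06 with edgeR and with DESeq2 (-0.0643 and -0.0596) and between -0.2204 and 0.0131 with 1 library left out, and it ranged from 0.02 to 0.05 in input and from -0.17 to 0.01 in RPF.

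Of the 266 refits of named members' changes, 5 turned in sign: Kdelr2 in TE with thinned reads (-0.20), Arf3 without control input replicate 1 (-0.0457) or knockout input replicate 1 (-0.0345), and, without knockout RPF replicate 1, Arcn1 (-0.0813) and Tmed1 (0.4407). With 1 library left out, Arf3 ranged from -0.0457 to 0.1943, Arcn1 from -0.0813 to 0.6332 and Tmed1 from -1.7281 to 0.4407. The median TE change of soluble members, -0.04, turned to 0.0038 with edgeR, 0.0215 with DESeq2 and 0.1193 without knockout RPF replicate 2, and was -0.2069 without knockout RPF replicate 1. Not divided by length, the ratio of the highest to the lowest of the 8 COPI genes was 4.26 in place of 5.71. Replicate numbers are shared by the groups, but same-numbered libraries deviated together with correlations of only 0.08 (input) and 0.02 (RPF) between genotypes and of 0.02 and 0.01 between input and RPF within a genotype. Counting error lowers such correlations where reads are few, and the median gene had 7 reads in knockout RPF replicate 2. The correlations therefore cannot decide whether the numbers pair libraries. No pairing was assumed, and the replicate block left TE with 0 genes called.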

Other observations

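Outside the coats, 80 further genes of transport between the ER and the Golgi (tethers, golgins, Rab GTPases, SNAREs and cargo receptors) were in the table, and 0 of 80 in input, 0 of 71 in RPF and 0 of 71 in TE passed by limma. At an unadjusted p of 0.05, 9, 8 and 9 of them passed, beside 12.7%, 10.8% and 13.0% of all genes tested. edgeR called none of them, and DESeq2 called 2 in TE, beside 3.19% of all genes tested, so these counts were near the background. DESeq2 gave no adjusted p to 22 of the 71 in TE. Their median log2 changes were 0.02 in input, -0.04 in RPF and -0.03 in TE. The smallest p in TE belonged to Trip11, a golgin that tethers vesicles at the cis-Golgi. Its RPF value was 86.6 and 75.6 in control and 197 and 202 in knockout (22, 39, 24 and 13 reads), while its input was 173 and 176 in control and 159.8 and 183 in knockout. RPF values of the genotypes did not overlap, with a TE change of 1.23 (0.66 to 1.80, adjusted p = 0.135 by limma, 0.0858 by edgeR and 0.00553 by DESeq2). Next came Scfd1, a regulator of SNARE assembly on ER to Golgi vesicles, on the other side of 0. Its RPF value was 177 and 192 in control and 90.4 and 77.8 in knockout (45, 99, 11 and 5 reads), and its input was 249.6 and 267 in control and 272 and 251 in knockout. The TE change was -1.07 (-1.61 to -0.53), with an adjusted p of 0.162 by limma and by edgeR and of 0.0763 by DESeq2, which did not call Scfd1.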
